A study of Mus musculus with 24 samples.

Results

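Granzymes and their partners in the cytotoxic granule were followed in CD4+ T cells from resting state to 24 h of stimulation. The genes were Gzma, Gzmb, Gzmk, Prf1, Nkg7, Ctsw and Srgn, chosen by name for their place in the cytotoxic granule, with Cd8a and Cd8b1 added as a check on CD8+ T cells carried over in the purification. These are 9 of the 22009 named genes in the deposited table, and they were chosen with earlier results of these data known. All 9 were in the table and passed the filter on low values over the time course, and 7 passed it in the actinomycin libraries, where Gzmk and Cd8a lay below a mean of 1 RPKM (reads scaled to transcript length and to the library's mapped reads).

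The 24 RNA-seq libraries were made from splenic CD4+ T cells of adult WT C57BL/6 mice. The cells were pooled from several mice and enriched by magnetic negative selection. The labels describe purified CD4+ cells and the study's methods name naive cells. Resting cells gave 2 libraries, labelled as replicates. Th0, Th1 and Th2 cultures were sampled once each at 4, 8, 12, 16, 20 and 24 h. Th0 cultures received anti-CD3e and anti-CD28, Th1 cultures also anti-IL-4 and IL-12, and Th2 cultures anti-IL-12, anti-IFNG and IL-4 in addition to the stimulus. In 4 more libraries, stimulation for 16 h was followed by 0, 1, 2 or 4 h of actinomycin, which blocks transcription. Their skewing condition is not given. All cultures came from 1 pool of cells, so p-values measure the spread between libraries of that pool and not between mice. The cultures had no replicate libraries. In tests against rest, Th0, Th1 and Th2 served as the libraries of a time, so differences between cultures are part of that spread. In tests between cultures, the spread is what culture and time together left unexplained. The study describes cells taken out of the cultures at each time. Libraries of 1 condition may thus be serial samples of the same culture. The p-values do not measure the spread between replicate cultures. Resting libraries carry another tag in their labels than the cultures do, so activation and preparation cannot be told apart. The actinomycin libraries carry no such tag, so the tags do not show whether they share that pool. With 1 library a time, p-values of the actinomycin series do not measure the spread between mice either.

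Depth, recovered from the steps in the values, was between 17512385 and 33017133 mapped reads a library. Of the 18 culture libraries, that of Th0 at 8 h departed most from the sum of its culture and its time. It departed by 0.243 (root mean square over genes, log2). Th2 8 h, Th2 4 h and Th2 24 h followed with 0.22, 0.215 and 0.214. The other culture libraries departed by 0.106 to 0.168. CD4 T cell markers were high throughout, with Cd4 at 328 and 326 RPKM in resting cells and between 111 and 227 RPKM in culture. None of the 8 CD4 T cell markers was called between cultures over all times, where between 0.494% and 2.01% of all genes were. Per hour, Cd2 and Cd5 were called in Th2 against Th0 (-0.06 and -0.07, log2), where 5.15% of all genes were. Cd2 was called in Th2 against Th1 (-0.05), where 1.09% of all genes were. Transcripts of other cells were present at rest. The red cell markers summed to 19384 and 21449 RPKM, and to between 73.4 and 107 RPKM in the cultures at 24 h. The macrophage and monocyte markers summed to 816 to 835 RPKM and the B cell markers to 71.3 to 81.5 RPKM.

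Cytotoxic cells kill by releasing granules at the contact with a target. Perforin, encoded by Prf1, opens the way into the target cell, and granzymes are serine proteases that enter and cleave substrates there. Serglycin, encoded by Srgn, is the proteoglycan of the granule matrix to which granzymes are bound, Nkg7 is a membrane protein of the granule, and cathepsin W, encoded by Ctsw, is a cysteine protease of CD8+ T and NK cells. NK cells and CD8+ T cells are the main carriers of granzymes and perforin in spleen, and CD4+ T cells can express granzyme B after activation.

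In the mouse genome (GRCm38), Gzmb lies on chromosome 14 from 56258838 to 56262260 on the minus strand. Gzma and Gzmk are neighbours on the minus strand of chromosome 13, at 113093825 to 113100981 and 113171608 to 113225908, with 70.6 kb between them. Prf1 lies on chromosome 10 from 61297833 to 61304680 and Nkg7 on chromosome 7 from 43437073 to 43438249, both on the plus strand. Srgn is on the minus strand of chromosome 10 from 62493833 to 62527451. Ctsw (minus strand of chromosome 19, 5465043 to 5468507) overlaps Fibp on the other strand, and Gzmk overlaps Esm1 in the same way. Whether reads were counted by strand is not given in the sources used here. Cd8b1 and Cd8a are on the plus strand of chromosome 6, 35.9 kb apart. None of the 50-base windows in the transcripts of 8 of these genes occurs in another gene, and 6.00% of those of Cd8b1 do.

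The promoters of Gzmb, Gzma and Prf1 are given because these 3 killing proteins were each called between cultures. Each is the 250 bases before the RefSeq start of the gene (GRCm38.p6), 5′ to 3′ on the gene's strand. Capitals mark matches on either strand to 5 short motifs: TGANTCA (AP-1), TTCNNNGAA (STAT), TGTGGT (RUNX), GGTGTGA (T-box) and GGAAAA (NFAT). The windows are chr14:56262335-56262584 for Gzmb (minus strand), chr13:113100982-113101231 for Gzma (minus strand) and chr10:61297586-61297835 for Prf1 (plus strand).
Gzmb: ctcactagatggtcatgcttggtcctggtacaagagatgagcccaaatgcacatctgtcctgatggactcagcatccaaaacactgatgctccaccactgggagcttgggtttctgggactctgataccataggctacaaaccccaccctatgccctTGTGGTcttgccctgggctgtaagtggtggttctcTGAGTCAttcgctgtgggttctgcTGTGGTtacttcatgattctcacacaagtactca
Gzma: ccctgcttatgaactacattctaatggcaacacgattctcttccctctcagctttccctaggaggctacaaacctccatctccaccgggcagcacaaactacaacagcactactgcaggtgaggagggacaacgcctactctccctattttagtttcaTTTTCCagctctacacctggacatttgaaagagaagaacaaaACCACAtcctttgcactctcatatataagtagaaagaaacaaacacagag
Prf1: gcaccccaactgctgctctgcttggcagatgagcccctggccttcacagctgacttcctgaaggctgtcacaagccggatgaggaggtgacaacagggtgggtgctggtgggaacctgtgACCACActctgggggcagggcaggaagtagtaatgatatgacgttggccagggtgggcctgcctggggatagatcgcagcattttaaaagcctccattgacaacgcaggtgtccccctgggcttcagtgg

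The Gzmb window held an AP-1 motif that begins 58 bases before the start, between RUNX motifs that begin 93 and 34 bases before it. A RUNX motif began 50 bases before the Gzma start and 130 bases before the Prf1 start, in both on the other strand, and the Gzma window also held an NFAT motif 92 bases before the start. In the same window of 32851 mouse promoters, the AP-1 letters occurred in 6.75%, the RUNX letters in 14%, the NFAT letters in 20.4%, the STAT letters in 7.02% and the T-box letters in 3.33%. The Nkg7 window held a RUNX motif 83 bases, a T-box motif 13 bases and a STAT motif 220 bases before the start, and the Gzmk window held a T-box motif 75 bases before it. These positions count from RefSeq starts, which can differ from the gene ends given above. The Gzmk window (chr13:113180966-113181215) lies wholly inside the gene as placed above. The end of the Nkg7 window (chr7:43436888-43437137), with its T-box motif, lies inside Nkg7 as placed above. Of 2 Srgn windows, 1 held a RUNX motif 202 bases and an NFAT motif 221 bases before the start. That window (chr10:62507758-62508007) lies wholly inside Srgn as placed above. None of the 5 motifs was in the Cd8a window. Ctsw and Cd8b1 were not matched. No matches overlapped another, and a match is a description of the sequence only.

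In resting cells, Srgn had the highest level per length of these genes (238 ± 6.30 RPKM, SD, n = 2), followed by Gzma (67.4 ± 0.852), Ctsw (51.5 ± 0.828) and Nkg7 (44.5 ± 0.934). Lower levels were found for Prf1 (13.8 ± 1.08), Gzmb (10.98 ± 0.233), Cd8b1 (10.7 ± 0.493), Gzmk (2.24 ± 0.319) and Cd8a (1.81 ± 0.288). The resting values of Gzmb and Cd8b1 overlapped, and those of Gzmk and Cd8a lay next to each other, at 2.02 and 2.47 against 2.02 and 1.61 RPKM. Every other neighbour in this order was separated by more than the spread of both libraries.

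**Figure D1:**
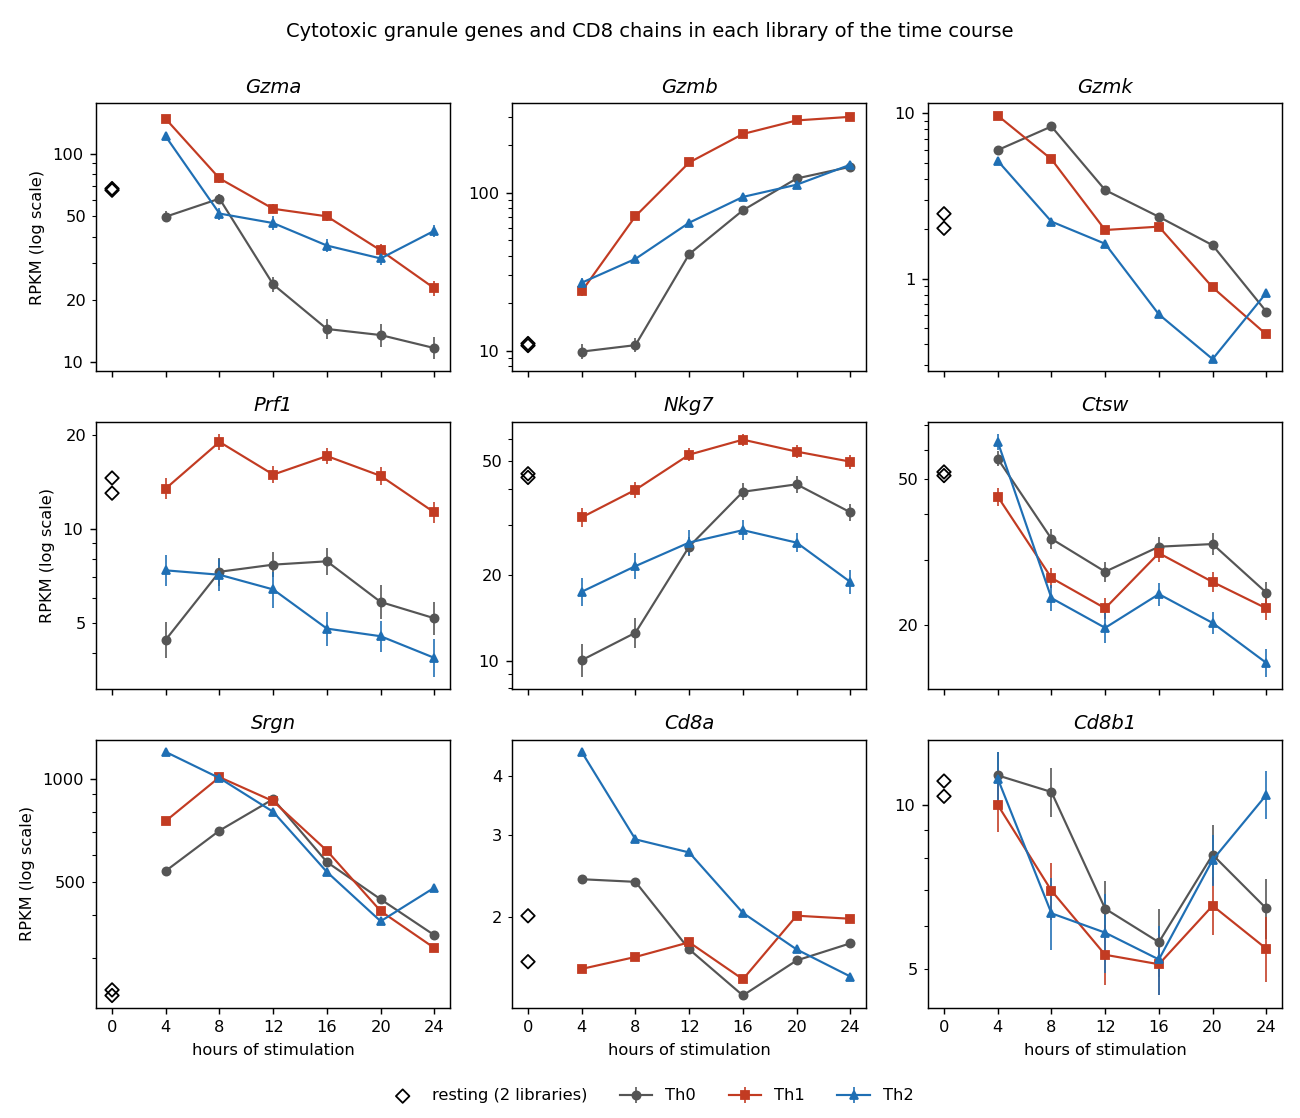
RPKM (log scale, one panel for each gene) against hours of stimulation, with resting libraries as open diamonds at 0 h and lines joining the Th0, Th1 and Th2 cultures. Vertical bars are exact Poisson 95% intervals of the reads, drawn for the 6 genes whose read counts could be recovered. Gzmb climbed to 301 RPKM in Th1 at 24 h, Gzma ended between 11.7 and 42.7 RPKM at 24 h, and Prf1 in Th1 stayed above Th0 and Th2 at each time.

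Gzmb rose with stimulation. It had 10.8 and 11.1 RPKM in resting cells, from 303 and 372 reads. In Th0 it was 9.90, 10.9, 40.8, 77.3, 123 and 145 RPKM from 4 to 24 h. In Th1 the values were 23.8, 70.9, 155, 234, 285 and 301 RPKM, and in Th2 27.0, 38.1, 64.5, 93.8, 112 and 150 RPKM. The Th0 libraries at 4 and 8 h did not leave the resting level beyond counting error, while each Th1 and Th2 library lay above both resting libraries. Th1 was highest at 5 of the 6 times, and Th0 and Th2 ended at nearly the same level at 24 h (ratio of Th2 to Th0 1.03, conditional binomial 95% interval 0.993 to 1.07, counting error only).

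Against resting cells, Gzmb was 16.3-fold higher at 24 h (log2 change 4.03 ± 0.71, SE, limma adjusted p = 0.000115). It was also called at 12, 16 and 20 h, with log2 changes of 2.70, 3.38 and 3.79, and not at 8 h (1.46, adjusted p = 0.0958 over 3 cultures). A gene was called when its limma p, adjusted over all genes tested by the method of Benjamini and Hochberg, was under 0.05 and the change was at least 2-fold. At 24 h, 4 of the 9 genes were called, Gzmb upward and Gzma, Gzmk and Ctsw downward, where 30.1% of all 10897 genes tested were called, 17.4% downward. With either resting library left out, 2 of the 9 were called, Gzmb and Ctsw.

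Gzma took the opposite course. At rest it was 68.0 and 66.8 RPKM. Th0 values were 49.9, 60.9, 23.6, 14.5, 13.5 and 11.7 RPKM from 4 to 24 h, all below both resting libraries. In Th1 they were 147, 76.1, 54.4, 50.1, 34.4 and 22.7 RPKM, and in Th2 121, 51.6, 46.5, 36.3, 31.5 and 42.7 RPKM. So Gzma at 4 h stood above rest in Th1 and Th2 and below it in Th0, and by 12 h all cultures were below rest. At 24 h the Th2 library had the highest value of the 3 cultures, and it is one of the libraries that departed most.

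From rest, the log2 change of Gzma was -1.44 at 20 h (SE 0.58, limma adjusted p = 0.0391) and -1.56 at 24 h (adjusted p = 0.0264), both called. Over the alternatives tried the 24 h call held in 11 of 15, with adjusted p between 0.00541 and 0.0968, and it was lost without either resting library and without the Th1 cultures, as was that at 20 h. Within culture, which leaves the resting libraries out, Gzma fell by 2.07 on the log2 scale between 4 and 24 h (SE 0.28, limma adjusted p = 7.41e-06), a 4.19-fold decrease. Gzmb rose by 3.30 in the same comparison (adjusted p = 1.72e-07).

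Gzmk, a granzyme of memory and effector T cells, was scarce. Its resting values were 2.02 and 2.47 RPKM. At 4 h it was 6.00 RPKM in Th0, 9.71 in Th1 and 5.17 in Th2, all above rest, and at 24 h it was 0.631, 0.459 and 0.820 RPKM, all below. The log2 change from rest was 1.40 at 4 h (SE 0.48, limma adjusted p = 0.0354) and -1.28 at 24 h (adjusted p = 0.0283). Without either resting library neither was called, with adjusted p of 0.182 and 0.109 at 4 h and 0.0726 and 0.132 at 24 h. At 4 h, Gzmk and Srgn were the 2 of 9 genes called, both upward, where 10.6% of all genes were called, 2.61% upward and 7.97% downward. Esm1, which overlaps Gzmk, was at most 1.08 RPKM in any library.

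The other granzymes were low or at 0. Of the 7 on the list, Gzme and Gzmn were at 0 in all 24 libraries, and Gzmd, Gzmf and Gzmg were at 0 in all but 1 or 2. Gzmc, at its highest, was 3.55 RPKM in Th0 (24 h) and 4.46 RPKM in Th1 (16 h), against 0.759 and 1.09 RPKM at rest. In Th2 it was 0.423 to 1.64 RPKM. It was the only one of the list that passed the filter in the time course, and it rose by 1.04 on the log2 scale between 4 and 24 h (limma adjusted p = 0.0325). Gzmc was lower in Th2 than in Th1 (log2 difference -1.19, adjusted p = 0.0119) and had a negative slope per hour in Th2 against Th0 (-0.12, adjusted p = 0.0384). Gzmm stayed between 0.213 and 1.49 RPKM in the time course.

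Prf1, unlike Gzmb, was not called higher than at rest. Resting cells had 12.99 and 14.5 RPKM. In Th0 the level was 4.42, 7.28, 7.67, 7.87, 5.83 and 5.17 RPKM, and in Th2 it went from 7.36 RPKM at 4 h through 7.12, 6.39, 4.79 and 4.53 to 3.86 RPKM at 24 h. Th1 libraries held 13.4, 18.9, 14.9, 17.1, 14.8 and 11.3 RPKM. All 6 Th0 and all 6 Th2 libraries were thus below both resting libraries, and the Th1 libraries lay around them. Averaged over the 3 cultures, Prf1 was not called at any time against rest. Its log2 change at 24 h was -1.10 ± 0.60 (SE, limma adjusted p = 0.117). This SE includes the differences between cultures.

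Nkg7 was lowest at 4 h in each culture. From 43.9 and 45.2 RPKM at rest it went to 10.1 RPKM in Th0, 31.8 in Th1 and 17.5 in Th2 at 4 h. At 16 h the values were 39.1, 59.5 and 28.7 RPKM, and at 24 h 33.1, 49.8 and 18.9 RPKM. Each Th2 and each Th0 library was below both resting libraries, and Th1 was above them from 12 h on. No time point was called against rest (at 4 h, log2 change -1.30 ± 0.52, SE, limma adjusted p = 0.0683). Here too the SE includes the differences between cultures.

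Ctsw fell from its resting level. It had 52.1 and 51.0 RPKM at rest, between 44.7 and 63.0 RPKM at 4 h, and 24.5, 22.2 and 15.7 RPKM in Th0, Th1 and Th2 at 24 h. The log2 change from rest was -1.31 ± 0.23 at 24 h (SE, limma adjusted p = 0.000116) and -1.15 at 12 h, with calls under each of the 15 alternatives at both times. Fibp, whose gene overlaps Ctsw on the other strand, was 17.0 to 25.1 RPKM in the cultures. The 3 genes called at 12 h were Gzmb, Srgn and Ctsw, where 27.1% of all genes were called.

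Srgn had risen by 4 h. From 242 and 233 RPKM it went to 539 RPKM in Th0, 753 in Th1 and 1197 in Th2 at 4 h. Th0 peaked at 12 h with 872 RPKM and Th1 at 8 h with 1010.5 RPKM. At 24 h it had returned to 350, 321 and 481 RPKM, still above both resting libraries. The log2 change from rest was 1.72 at 4 h, 1.91 at 8 h, 1.83 at 12 h and 1.27 at 16 h, called at each (SE 0.24, limma adjusted p = 1.03e-05 at 8 h), and 0.67 at 24 h, under 2-fold. It was the only one of the 9 called at 8 h, where 18.9% of all genes were called, 6.42% upward. Without the Th0 8 h library 3 of the 9 were called there.

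At 16 h the 2 genes called were Gzmb and Srgn, where 25.7% of all genes were called, and at 20 h Gzmb and Gzma, where 29.0% were. Between 4 and 24 h in culture, 5 of the 9 genes were called against 26.3% of all 10737 genes: Gzmb upward, and Gzma, Gzmk (log2 change -2.68), Ctsw (-1.39) and Srgn (-1.06, limma adjusted p = 0.000266) downward. The Srgn call was lost without the Th1 or the Th2 cultures (-0.97 and -0.93) and with median-of-ratios scaling (-0.98), each short of 2-fold. The median log2 change of the 9 was -0.56 there, and that of all genes was 0.00.

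Cd8a and Cd8b1, the chains of the CD8 co-receptor, stayed low. Cd8b1 was 10.4 and 11.1 RPKM at rest and 5.11 to 11.4 RPKM in culture. Cd8a was 2.02 and 1.61 RPKM at rest and 1.36 to 4.51 RPKM in culture, highest in Th2 at 4 h. Neither was called against rest or between 4 and 24 h. Cd8b1 at 12 and 16 h passed the adjusted p but not the 2-fold limit (log2 change -0.82, limma adjusted p = 0.00366, and -0.95, adjusted p = 0.00129). In the libraries where Gzmb was highest, Th1 at 20 and 24 h, Cd8b1 was 6.54 and 5.46 RPKM, below both resting values, while Gzmb was 285 and 301 RPKM. The part of CD8+ T cells in the course of Gzmb and the other granule genes was not tested.

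NK cell markers were measurable at rest and fell with time. The 13 NK receptor genes on the list summed to 172 and 164 RPKM at rest, 23.1 to 103 RPKM in Th0, 41.2 to 140 RPKM in Th1 and 25.4 to 116 RPKM in Th2, and none of them was at 0 in any library of the time course. Of all 15 NK markers, 14 were called lower at 24 h than at rest and none higher, where 17.4% of all genes were called lower and 12.7% higher. Tyrobp, Fcer1g and Klrb1c fell most (log2 changes -4.03, -3.26 and -3.17). In culture, 13 of the 15 fell between 4 and 24 h, where 26.3% of all genes were called in either direction. Fewer cells of a type and less RNA per cell cannot be told apart in such libraries. The NK receptor sum was lower, and Gzmb higher, in each culture at 24 h than at 4 h. Gzma, Gzmb, Prf1, Nkg7, Gzmk and Ctsw are all expressed by NK cells. The part of NK cells in the course of these genes, Gzmb among them, was not tested.

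**Figure D2:**
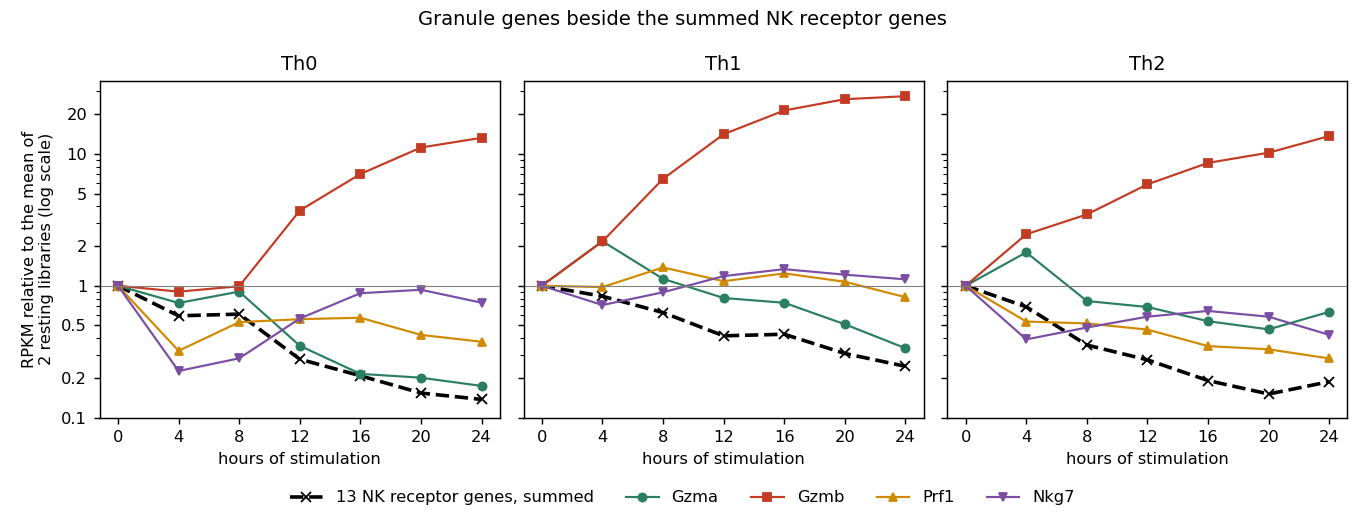
RPKM relative to the mean of both resting libraries (log scale) against hours of stimulation, one panel for each culture, for 4 granule genes and for 13 NK receptor genes summed (dashed). Before division by the resting mean, the sums behind the dashed line were 23.1, 41.2 and 31.5 RPKM in Th0, Th1 and Th2 at 24 h. At rest they were 172 and 164 RPKM. Gzma at 24 h lies below its resting level and Gzmb above it in every panel.

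Markers of memory and effector T cells also fell, 6 of 9 at 24 h against rest and none upward, among them Ccl5 (log2 change -3.82), beside the 17.4% of all genes called lower there. Of the 3 gamma-delta and NKT markers in the table, none passed the filter, and they summed to at most 3.04 RPKM. Of the granulocyte and mast cell markers, which include other granule proteases, 7 passed the filter and 4 were lower at 24 h. Of the other cell types, 9 of 9 macrophage and monocyte markers, 7 of 7 B cell markers and 4 of 4 red cell markers were called lower at 24 h, to be read against the same 17.4%.

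Over the 20 time-course libraries, each gene's profile was compared with those of 10896 others, as the root mean square difference of centred log2 values. The profiles most like that of Gzma were those of Klri2, Klra9 and Klra4 (0.43, 0.44 and 0.53), against a spread of Gzma itself of 0.94. These encode receptors of NK cells. Most like Gzmb were Cd200, Hk2 and Nrn1 (0.59, 0.60 and 0.61, spread 1.57), and most like Srgn were Rnf19a, Errfi1 and Fasl (0.24, 0.25 and 0.27, spread 0.66). Prf1 was closest to Gem (0.33), Nkg7 to Fcrl1 (0.36), Gzmk to Crebrf (0.31) and Ctsw to Ets1 (0.18). Cd8a was closest to Hdac4 (0.24) and Cd8b1 to Zfp937 (0.18). The points share their libraries and pool of cells, so these are descriptions.

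Gzmb, Prf1 and Gzma were higher in Th1 than in Th0 cultures. Fitted with a term for each time, 3 of the 9 genes were called higher in Th1 than in Th0. Of all 10737 genes, 0.494% were called, 0.177% higher and 0.317% lower in Th1. The 3 were Gzmb (log2 difference 1.61 ± 0.22, SE, limma adjusted p = 0.000604), Prf1 (1.19 ± 0.13, adjusted p = 7.71e-05) and Gzma (1.17 ± 0.20, adjusted p = 0.00333). These differences are 3.05-, 2.28- and 2.26-fold. In each of the 3, Th1 was above Th0 at 6 of 6 times. Of 18 alternatives, only that with no filter on low values ended the Gzma call (limma adjusted p = 0.0605). Nkg7 was also higher at 6 of 6 times, by 0.98 (adjusted p = 0.00705), just under the 2-fold limit.

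The Th1 to Th0 ratio of Prf1 ranged from 1.94 at 12 h (95% interval 1.74 to 2.17) to 3.04 at 4 h (2.60 to 3.56). For Gzmb it was largest at 8 h (6.52, 5.86 to 7.27) and smallest at 24 h (2.07, 2.00 to 2.14). Gzma was 1.25 (1.16 to 1.34) at 8 h and 3.46 (3.06 to 3.93) at 16 h. At 8 h the Th0 library stood apart, and it was behind the others on the first principal component of all genes, at 39.7 against 10.3 in Th1 and -10.5 in Th2, where resting libraries had 82.4 and 82.6. The cultures were out of step at other times too. In Th0, Th1 and Th2 the component was 65.2, 58.6 and 44.5 at 4 h, and -4.1, -19.2 and -32.7 at 12 h. At 16 h Th0 and Th1 were close (-19.0 and -18.0), with Th2 at -40.2. Without the Th0 8 h library Gzma, Gzmb and Prf1 were still called, but the differences in pace at the other times remain in that fit. The part of pace in the culture differences was not tested.

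Th2 and Th1 cultures differed in Prf1 and Nkg7. Both were lower in Th2 at 6 of 6 times, Prf1 with a log2 difference of -1.35 (SE 0.13, limma adjusted p = 2.44e-06) and Nkg7 with -1.03 (SE 0.18, adjusted p = 0.000861). They were the 2 of 9 genes called, where 1.96% of all genes were called, 0.568% higher and 1.39% lower in Th2. In ratios, Th2 held between 0.281 (16 h, 0.244 to 0.322) and 0.548 (4 h, 0.475 to 0.630) of the Th1 level of Prf1. Prf1 was called under all 18 alternatives and Nkg7 under 16, the exceptions being without 24 h (-0.96) and without the Th2 24 h library (-0.92), short of 2-fold. Gzmb had a log2 difference of -0.94 (adjusted p = 0.00876), short of 2-fold, and Gzma did not differ beyond the spread (-0.12 ± 0.20, adjusted p = 0.740, over alternatives -0.33 to 0.02).

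Th2 against Th0 gave 1 call among the 9, Gzma, where 2.01% of all genes were called, 0.186% higher in Th2. Gzma was 2.07-fold higher in Th2 (log2 difference 1.05 ± 0.20, SE, limma adjusted p = 0.00123), above Th0 at 5 of 6 times and below it at 8 h (ratio 0.849, 0.779 to 0.924). Without the Th2 24 h library, or without 24 h, the difference was 0.87 and 0.90, short of 2-fold. Gzmb was 1.59-fold higher (adjusted p = 0.0316) and Gzmk 1.84-fold lower (adjusted p = 0.00857), both short of 2-fold. Ctsw had a log2 difference of -0.44 (adjusted p = 0.00660) and was lower in Th2 at 5 of 6 times. Prf1, Nkg7, Srgn, Cd8a and Cd8b1 gave adjusted p between 0.149 and 0.837.

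**Figure D3:**
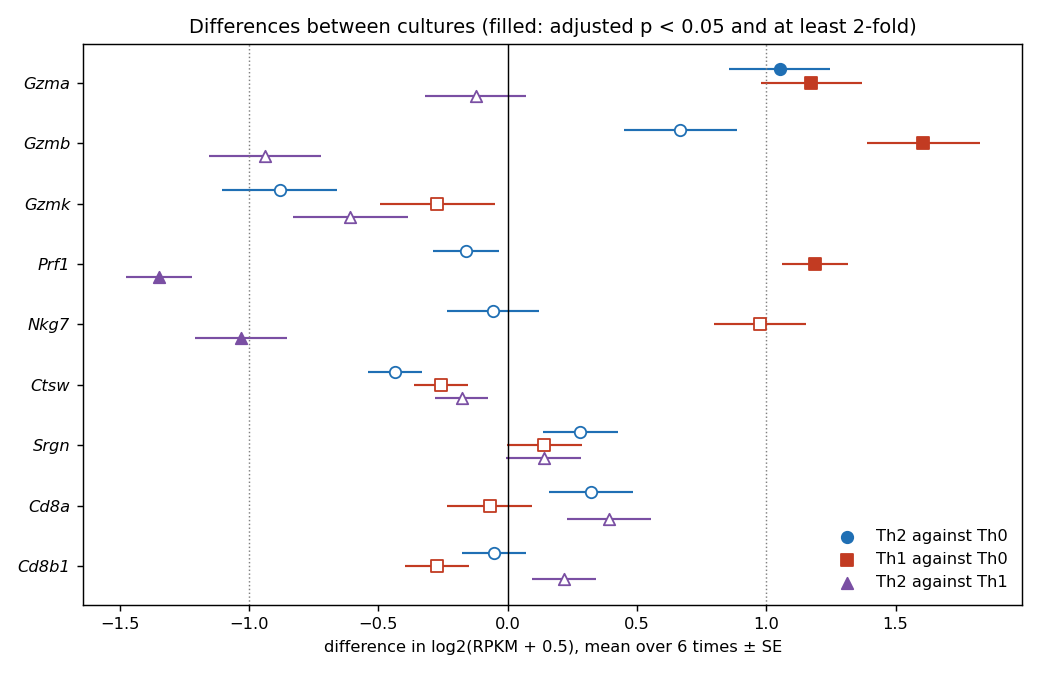
Log2 difference between cultures (x axis, mean over 6 times, bars ± SE) for each of the 9 genes (y axis), with filled symbols for those past adjusted p 0.05 and 2-fold (dotted lines). Prf1 is filled for both comparisons that hold Th1, at 1.19 and -1.35, and Gzma for both comparisons against Th0, at 1.17 and 1.05.

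NK markers were also compared between the cultures. Against Th0, 1 of the 15 was called in Th1, where 0.494% of all genes were: Ncr1, the NK receptor NKp46, by 1.25 (limma adjusted p = 0.00287). The list's median was 0.62 there. None was called in Th2 against Th0, with a median of 0.12. Against Th1, 2 of the 15, Ncr1 and Klrc1, were lower in Th2 (-1.07 and -1.02), where 1.39% of all genes were, and the list's median was -0.48. Ncr1 was 12.2 RPKM in Th1 at 4 h, above the 8.43 and 8.67 RPKM of resting cells, and 2.52 and 4.28 RPKM in Th0 and Th2. The part of NK cells in the culture differences of Prf1, Gzma, Gzmb and Nkg7 was not tested. Neither CD8 chain was called between cultures over all times: Cd8b1 differed by -0.27 to 0.22 and Cd8a by -0.07 to 0.39. At 24 h, Cd8b1 in Th2 was 1.62 times Th0 (1.37 to 1.90) and 1.92 times Th1 (1.62 to 2.28). Gzma in that Th2 library was 3.65 times Th0 (3.19 to 4.19) and 1.89 times Th1 (1.70 to 2.10). Cd8a went the other way there, at 1.495 RPKM against 1.76 in Th0 and 1.99 in Th1. The part of CD8+ T cells in the culture differences was not tested either.

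Differences between cultures also changed with time. Nkg7 in Th2 lost ground to Th0 with a slope of -0.09 per hour on the log2 scale (SE 0.01, limma adjusted p = 0.00134 for the interaction of culture and hour), and Gzmb with -0.09 per hour (SE 0.02, adjusted p = 0.0349). They were the 2 of 9 genes called, where 5.15% of all genes were called, 1.10% with a positive and 4.05% with a negative slope. For Nkg7 the Th2 to Th0 ratio was 1.74 (1.45 to 2.08) at 4 h, 1.03 (0.909 to 1.17) at 12 h and 0.570 (0.505 to 0.643) at 24 h. For Gzmb it was 2.72 (2.39 to 3.10) at 4 h and 3.50 (3.12 to 3.95) at 8 h, and 0.914 (0.875 to 0.954) at 20 h. So the order of Th2 and Th0 turned for Nkg7. In Th1 against Th0 its slope was also negative, at -0.067 per hour (SE 0.011, limma adjusted p = 0.0579), though not called. Between Th2 and Th1 the slope of Nkg7 was -0.023 per hour (adjusted p = 0.305). The loss of ground to Th0 was thus not shown to be particular to Th2. Against Th1, only Cd8a was called, by -0.08 per hour (limma adjusted p = 0.0210), where 1.09% of all genes were called, 0.810% with a negative slope. Cd8a was 4.51 RPKM in Th2 at 4 h and 1.495 RPKM at 24 h, and it was not called without the Th2 24 h library (adjusted p = 0.0991). None of the 9 was called for Th1 against Th0, where 0.0279% of all genes were called (limma), 0.0186% with a positive and 0.00931% with a negative slope.

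In the actinomycin series, Prf1 and Gzma fell and Ctsw rose, relative to the mRNA that remained. Prf1 was 2.57, 1.81, 1.82 and 0.647 RPKM at 0, 1, 2 and 4 h, from 136, 78, 70 and 24 reads. Its slope was -0.34 per hour on the log2 scale (SE 0.10, limma adjusted p = 0.00606, from 4 libraries). Gzma was 6.82, 6.61, 5.71 and 3.41 RPKM, with a slope of -0.24 (SE 0.08, adjusted p = 0.0196). The intervals at 0 and 2 h overlap for each (Prf1 2.16 to 3.04 against 1.42 to 2.30 RPKM, Gzma 5.78 to 7.98 against 4.62 to 6.99 RPKM). Neither was called without the 0 h library (limma adjusted p = 0.112 for Prf1 and 0.10 for Gzma) or without the 4 h library (0.591 and 0.715), and Gzma was not called without the 1 h library (0.0979).

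Ctsw was 12.8, 13.01, 18.7 and 27.5 RPKM, a slope of 0.29 (SE 0.06, limma adjusted p = 0.000202), and it was not called without the 4 h library (adjusted p = 0.262). Fibp, its neighbour on the other strand, was 20.7, 22.4, 23.2 and 22.7 RPKM in the same libraries. The slopes of Gzmb (68.9, 75.9, 73.9 and 56.8 RPKM), Nkg7, Srgn and Cd8b1 gave adjusted p between 0.319 and 0.692. Of the 7 genes that passed the filter 3 were called, where 20.9% of all 10571 genes were called, 8.95% with a positive and 12.0% with a negative slope, and the median slope of all genes was 0.00. With no filter on low values, no gene was called, Prf1, Gzma and Ctsw included (limma adjusted p = 0.286, 0.268 and 0.242). Gzmk was between 0.413 and 1.14 RPKM and Cd8a between 0.445 and 0.711 RPKM.

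The actinomycin libraries began at other levels than the 16 h cultures. At 0 h, Gzma was 6.82 RPKM, against 14.5, 50.1 and 36.3 RPKM in Th0, Th1 and Th2 at 16 h. Prf1 was 2.57 RPKM against 7.87, 17.1 and 4.79, and Nkg7 18.7 RPKM against 39.1, 59.5 and 28.7. Gzmb, at 68.9 RPKM, was 0.891 of the Th0 level (0.843 to 0.942) and 0.294 of the Th1 level (0.281 to 0.307). The NK receptor genes summed to 13.6 RPKM there, against 34.9, 72.1 and 32.1 RPKM, and the B cell markers to at most 4.93 RPKM in the 4 libraries. With 1 library a condition and no culture given, these levels are set side by side without a test.

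**Figure D4:**
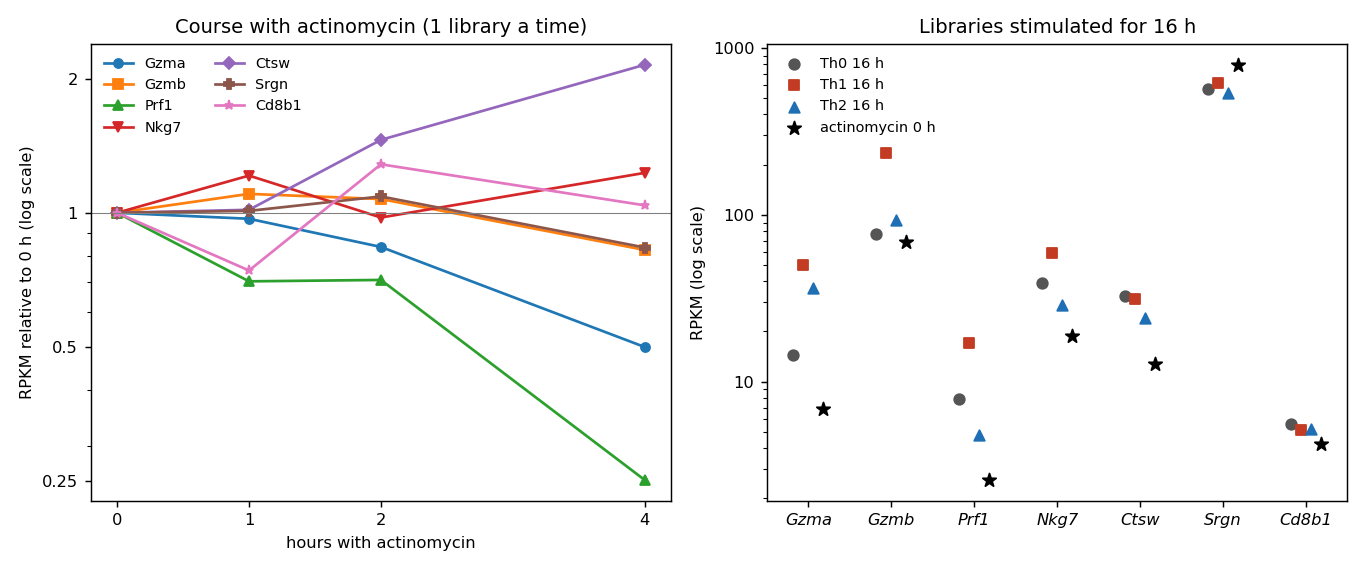
Left, RPKM relative to 0 h (log scale) against hours with actinomycin for 7 genes, 1 library a time. Right, RPKM (log scale) of the same genes in the 4 libraries stimulated for 16 h. Prf1 goes from 2.57 to 0.647 RPKM and Ctsw from 12.8 to 27.5 RPKM, and the 0 h library (star) is lowest for Gzma, Gzmb, Prf1, Nkg7, Ctsw and Cd8b1 and highest for Srgn.

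Genes that act with the granule proteins were followed as lists. Of 15 genes for granule sorting and release, all passed the filter. At 24 h against rest, 1 was higher, Stx11, a syntaxin needed for granule fusion, and 2 were lower, Ctsh and Unc13d (log2 changes 1.85, -2.77 and -1.01), with a median of -0.44. These 3 of 15 compare with 30.1% of all genes called at 24 h. Lyst, a regulator of lysosome size, was lower in Th1 than in Th0 (log2 difference -1.51, limma adjusted p = 0.00304). It was the only one of the list called there, where 0.494% of all genes were. Lyst was also higher in Th2 than in Th1 (1.21, adjusted p = 0.00361), again the only one called, where 1.96% of all genes were. It was 26.9 RPKM in Th0, 6.47 in Th1 and 39.6 in Th2 at 4 h. With actinomycin 6 of the 15 fell and none rose, where 12.0% of all genes fell and 8.95% rose. Vamp7, Ctsc and Ctsh had the steepest slopes (-0.28, -0.27 and -0.23 per hour). Ctsc encodes the protease that activates granzymes.

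Of the granzyme inhibitors, 4 of 5 passed the filter. At 24 h, Serpinb9, the inhibitor of granzyme B, and Serpinb6b, an inhibitor of granzyme A, had risen from rest (log2 changes 1.81 and 1.34, limma adjusted p = 0.000105 and 0.00205), and Serpinb6a had fallen (-2.90), so 3 of 4 were called where 30.1% of all genes were. Serpinb9 was 8.17 and 7.46 RPKM at rest and 28.1, 22.4 and 37.0 RPKM in Th0, Th1 and Th2 at 24 h. Serpinb6b reached 69.3 RPKM in Th2 at 24 h, against 33.4 in Th0 and 21.3 in Th1. Cst7, cystatin F, an inhibitor of cathepsins of the granule, was higher in Th2 than in Th1 by 1.15 (adjusted p = 2.45e-06).

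The death ligands, the other route by which T cells kill, all passed the filter. Tnf and Lta were higher at 24 h than at rest (log2 changes 2.26 and 3.26, limma adjusted p = 0.000239 and 0.000331) and Fasl was higher at 4 h (1.11, adjusted p = 0.0212). The 2 of 4 called higher at 24 h compare with 12.7% of all genes. Lta was lower in Th2 than in Th1 (-1.19, adjusted p = 0.0134). It was 135 RPKM in Th0, 224 in Th1 and 40.9 in Th2 at 24 h.

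Regulators of the cytotoxic programme differed between cultures. Of the 13 that passed the filter, 3 were lower in Th2 than in Th1: Ifng, Tbx21, which encodes T-bet, and Il12rb2 (log2 differences -2.49, -2.23 and -1.60), where 1.39% of all genes were lower. Against Th0, 2 of the 13 were lower in Th2, Tbx21 (-1.78) and Il12rb2 (-1.27), where 1.83% of all genes were. Tbx21 was 41.0 RPKM in Th0, 47.0 in Th1 and 3.50 in Th2 at 24 h. Against Th0, Ifng was higher in Th1 by 3.15 (limma adjusted p = 8.68e-06), and was the only one of the list called there, where 0.494% of all genes were. At 24 h against rest, 6 of the 13 were called, 2 higher and 4 lower. Of all genes, 12.7% were called higher and 17.4% lower there. Il2ra, the receptor chain for IL-2, rose from rest by 3.63 at 24 h and Eomes by 1.02, whereas Prdm1, Zeb2, Id2 and Zbtb7b fell. The median of the list was -0.52 for Th2 against Th1 and 0.02 for all genes.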

How the data were processed

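RNA sequencing of 24 libraries was deposited by the authors as RPKM values per gene symbol. The submitters' processing notes name BWA and GRCm38; the counting method is not given in the sources used here. The 1 entry without a gene name sums to 0. Whole reads were recovered where all values of a gene were whole multiples of 1 step (tolerance 0.0001), which held for 43.0% of 16823 genes and for 6 of the 9 reported here, so no count model was used. Intervals of single values are exact Poisson and of ratios conditional binomial 95% intervals, and cover counting error only. RPKM is relative to each library's total.

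Changes were tested with limma 3.58.1 (R 4.3.3, intensity trend) on log2(RPKM + 0.5), keeping genes whose mean reached 1 RPKM, with Benjamini-Hochberg adjustment over all genes tested. The pseudocount understates changes of low genes. Time points were compared with rest over 20 libraries (the 3 cultures of a time as its libraries), cultures over 18 libraries with time as a factor, 24 h with 4 h with culture as a factor, and slopes on hours as a number with no fold limit. Each fit was tested on simulated data. Members and lists were chosen with earlier results of these data known. The 9 genes were always named. From each list, at most 3 with the largest and 3 with the smallest change among those called were named, and a few further genes with their levels after values were seen. Likeness names the 3 smallest root mean square differences, or the smallest. Alternatives were other pseudocounts (0.1 and 1), filters (none and 5 RPKM), median-of-ratios and quantile scaling, no trend, only the libraries compared, 12 to 24 h only, and leaving out libraries, cultures or times. Leaving out single culture libraries (Th0 8 h, Th2 4 h and Th2 24 h) was chosen after seeing the data. Promoters are from RefSeq (GRCm38.p6) and matched 7 of the 9 symbols, all but Ctsw and Cd8b1. Python 3.11.15 (numpy 2.4.6, pandas 2.3.3, scipy 1.17.1) was used.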

Additional observations from a re-analysis of the deposited data

Results flagged for a closer look

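The change with time in the difference between Th2 and Th0 cultures passed the limma interaction test for Nkg7 (-0.090 per hour on the log2 scale) and for Gzmb (-0.092 per hour), and that between Th2 and Th1 cultures passed for Cd8a (-0.077 per hour). Nkg7 was called under all 9 alternatives and Gzmb under 7 of 9. Cd8a was called under 5 of 8, and not without 4 h, without 24 h or without the Th2 24 h library.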

How the results depend on the processing

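No paired analysis was possible because the cultures carry no replicate numbers and only the resting libraries do; libraries were matched by time or by culture as factors instead. Of 31 called results for single members, none reversed under an alternative, and the call was lost 42 times and held 391 times over their alternatives; the cause was not tested. With a mean of at least 5 RPKM, 646 genes at 4 h and 1334 at 8 h were called against rest, with fewer genes tested. Members called were 1 at 4 h (pseudocount 0.1, no filter or 5 RPKM), 2 at 8 h (quantile), 1 at 20 h (no filter or median-of-ratios), 2 at 24 h (no filter) and 2 for Th2 against Th0 (pseudocount 0.1). For change per hour, members called were 1 for Th2 against Th0 (no trend), 0 for Th2 against Th1 (5 RPKM) and 1 for Th1 against Th0 (quantile), where genes called were 6 (pseudocount 0.1), 1 (median-of-ratios), 8 (quantile) and 1 (no trend). Without a filter, limma called 0 genes and 0 members with actinomycin. For comparison, the main fits called 10.6% of all genes at 4 h, 18.9% at 8 h, 29.0% at 20 h and 30.1% at 24 h. They called 2.01% for Th2 against Th0 and 1.96% for Th2 against Th1.

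Leaving out libraries, times or cultures gave 1 to 3 members called at 4 h, 1 to 3 at 8 h, 1 to 4 at 20 h, 2 to 4 at 24 h, 1 to 2 for Th2 against Th0 and 1 to 3 for Th2 against Th1. Of all genes, 167 to 249 were then called for Th2 against Th0 and 193 to 233 for Th2 against Th1. For change per hour, such leaving out gave 152 to 3035 genes and 2 to 4 members (Th2 against Th0). It gave 24 to 363 genes and 0 members (Th2 against Th1), and 0 to 45 genes and 0 to 1 members (Th1 against Th0). With actinomycin it gave 536 to 3351 genes and 0 to 3 members.

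Directions of uncalled results that turned were those of Gzmk at 12 h (-0.003, pseudocount 0.1), with quantile scaling Gzmk at 16 h (0.189), Cd8a at 16, 20 and 24 h (0.513, 0.645 and 0.635), Cd8b1 in Th2 against Th0 (0.021) and Srgn in Th2 against Th1 per hour (0.001), with median-of-ratios scaling Cd8a at 20 and 24 h (0.057 and 0.069) and Gzma in Th1 against Th0 per hour (-0.000). Over 12 to 24 h only, they were Cd8b1 in Th2 against Th0 (0.098), Gzma in Th2 against Th1 (0.023), and Srgn and Cd8a in Th1 against Th0 (-0.037 and 0.127). When libraries, times or cultures were left out, the ranges that crossed 0 against rest were Ctsw (-0.034 to 0.211) and Cd8b1 (-0.031 to 0.068) at 4 h, Gzma at 8 h (-0.264 to 0.013), Gzmk (-0.256 to 0.189) and Cd8a (-0.041 to 0.266) at 12 h, Nkg7 at 16 h (-0.406 to 0.114) and 20 h (-0.434 to 0.088), and Cd8a at 20 h (-0.145 to 0.110) and 24 h (-0.168 to 0.087). Between cultures they were Nkg7 (-0.221 to 0.091) and Cd8b1 (-0.195 to 0.074) in Th2 against Th0, Srgn in Th2 against Th1 (-0.001 to 0.208) and Cd8a in Th1 against Th0 (-0.134 to 0.017). Per hour they were Gzmk (-0.049 to 0.085, -0.010 to 0.064 and -0.051 to 0.021 in Th2 against Th0, Th2 against Th1 and Th1 against Th0) and Srgn in Th2 against Th1 (-0.046 to 0.030). With actinomycin they were Gzmb (-0.145 to 0.051), Nkg7 (-0.017 to 0.073) and Srgn (-0.105 to 0.061). Median-of-ratios and quantile scaling moved the median of all genes at 24 h against rest by 0.134 and 0.162.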
